A study of Mus musculus with 6 samples.

Results

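Liver RNA of 6 male C57BL/6 mice on a high-fat diet (HFD) was examined for 38 cell cycle and proliferation genes, chosen by gene symbol from the 45777 genes of the expression table. The study compared 3 LT mice, which carried Fpn flox/flox without a Cre transgene, with 3 mice labelled Alb-Cre; Fpn flox/flox, here called Fpn-LKO. Both groups thus carried the floxed Fpn allele and differed in the Cre transgene, which the albumin promoter drives in hepatocytes, so the other liver cells keep the gene. The labels put all mice in 1 batch and give no age, and each library was made from whole liver of 1 mouse.

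The total reads on genes lay between 43086184 and 47778683 per library, and 34 of the 38 genes passed the filter on low counts (at most 1 library with 0 reads), which kept 17274 genes in all. Slc40a1, the gene that encodes ferroportin (chromosome 1, 45908070-45926532, build GRCm38), was read at 153 ± 27.0 CPM (reads scaled to a common library size) in LT, against 154 ± 18.7 CPM for the label Fpn-LKO (SD, n = 3 each). Its log2 fold change was 0.01 (SE 0.16, with an adjusted p of 0.995 in the quasi-likelihood test of edgeR), so the counts per gene did not show the deletion, and the 3 libraries labelled Fpn-LKO are named by that label, as Cre-labelled libraries, throughout. A count over the whole gene includes reads from any exon that remains. The labelled tissue was checked by 10 hepatocyte markers, among them Alb and Ttr, which were all read and summed to between 66844 and 82496 CPM per library.

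The cell cycle is driven by cyclins, which bind and switch on cyclin-dependent kinases in a fixed order. D-type cyclins with Cdk4 start the cycle in G1, cyclin E with Cdk2 opens S phase, and cyclins A and B with Cdk1 drive mitosis. Origins of replication are licensed beforehand by Cdc6 and Cdt1, which load the ring-shaped Mcm2 to Mcm7 helicase onto DNA. Inhibitors such as p21, the product of Cdkn1a, hold the kinases back, and Cdkn1a and Mdm2 are both direct targets of the tumour suppressor p53. Hepatocytes of the adult liver are mostly quiescent, and they can re-enter the cycle after injury or loss of tissue.

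S phase genes are classically bound by E2F factors, and mitotic genes by the DREAM and MuvB complexes at a CHR element next to CCAAT boxes. The promoter windows below were taken from RefSeq (build GRCm38.p6) for 3 helicase genes described below, Mki67 and Top2a as the usual proliferation markers, and Cdkn1a. A window is shown only where it holds the marked motif. Each window ends at the base before the gene's start or the nearest annotated exon and reads 5′ to 3′ on the gene's strand. That of Mcm7 precedes the second of its listed starts and lies within the span of the gene. Capitals mark E2F words in the Mcm genes, the CHR in Mki67 and Top2a, and p53 decamers in Cdkn1a. The capitals in Mcm6 hold overlapping E2F words of both strands.
Mcm5 (chr8:75109359-75109467, plus strand): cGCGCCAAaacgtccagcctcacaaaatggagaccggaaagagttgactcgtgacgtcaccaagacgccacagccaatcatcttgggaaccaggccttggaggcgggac
Mcm6 (chr1:128359706-128359855, minus strand): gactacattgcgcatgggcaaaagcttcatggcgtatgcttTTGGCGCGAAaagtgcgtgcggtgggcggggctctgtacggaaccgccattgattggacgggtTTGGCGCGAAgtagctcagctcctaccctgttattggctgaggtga
Mcm7 (chr5:138171267-138171416, minus strand): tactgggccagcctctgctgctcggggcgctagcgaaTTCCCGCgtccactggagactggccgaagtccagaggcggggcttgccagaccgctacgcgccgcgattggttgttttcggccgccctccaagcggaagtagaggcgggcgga
Mki67 (chr7:135716451-135716529, minus strand): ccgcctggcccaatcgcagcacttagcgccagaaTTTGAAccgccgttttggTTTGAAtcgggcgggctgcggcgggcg
Top2a (chr11:99024200-99024339, minus strand): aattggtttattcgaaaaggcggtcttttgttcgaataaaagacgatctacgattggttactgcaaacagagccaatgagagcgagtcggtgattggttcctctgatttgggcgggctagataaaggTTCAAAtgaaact
Cdkn1a (chr17:29090829-29090975, plus strand): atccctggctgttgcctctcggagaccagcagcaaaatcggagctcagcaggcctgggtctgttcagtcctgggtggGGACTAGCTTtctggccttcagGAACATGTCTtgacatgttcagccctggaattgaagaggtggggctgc

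Windows of 250 bases before to 50 after a start were matched by symbol for 30 of the 38 genes and searched on both strands. An E2F word (TTCCCGC or TTGGCGC or TTCGCGC or TTGCCGC) lay in 12 of the 30 (40.0%), against 10.9% of 27025 genes with such a window. These words were found in 6 of the 8 licensing and replication genes with a window but in 1 of the 8 mitosis genes. The CHR (TTTGAA) lay in 9 of the 30 (30.0%), against 20.2% of all genes. It had the opposite distribution, with 6 of the 8 mitosis genes and 1 of the 8 replication genes. A CCAAT box was present in 22 of the 30 genes (73.3%), against 41.1% of all genes. The p53 decamer was found in 5 of the 30 (Cdkn1a, Mdm2, Tyms, Bub1b and Birc5), against 9.55% of all genes. Such matches describe the letters of the windows and do not show whether a protein binds there.

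The 38 genes covered a wide range of levels in these livers. On the TPM scale, which divides by transcript length and so allows genes to be compared, 16 genes averaged at least 1 TPM over the 6 libraries and 22 fell below it. Cdk4, the kinase partner of the D-type cyclins, had the highest level at 26.2 TPM (22.6 to 32.2 over the libraries), followed by the replication clamp Pcna at 19.1 TPM (12.8 to 25.2). Mdm2 (11.3 TPM), the p27 gene Cdkn1b (9.21 TPM), Ccnd1 (8.47 TPM) and Mcm7 (6.26 TPM) came next, and the ranges of neighbours in this order overlapped. Genes of dividing cells were at the lower end. Mki67, whose protein coats mitotic chromosomes, averaged 0.194 TPM, topoisomerase Top2a 0.341 TPM and the mitotic kinase gene Cdk1 0.228 TPM. A total of 8 genes had at least 1 library without a read, among them the mitotic kinase genes Plk1, Aurkb and Bub1 and the transcription factor gene Foxm1, which the filter left out.

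**Figure D1:**
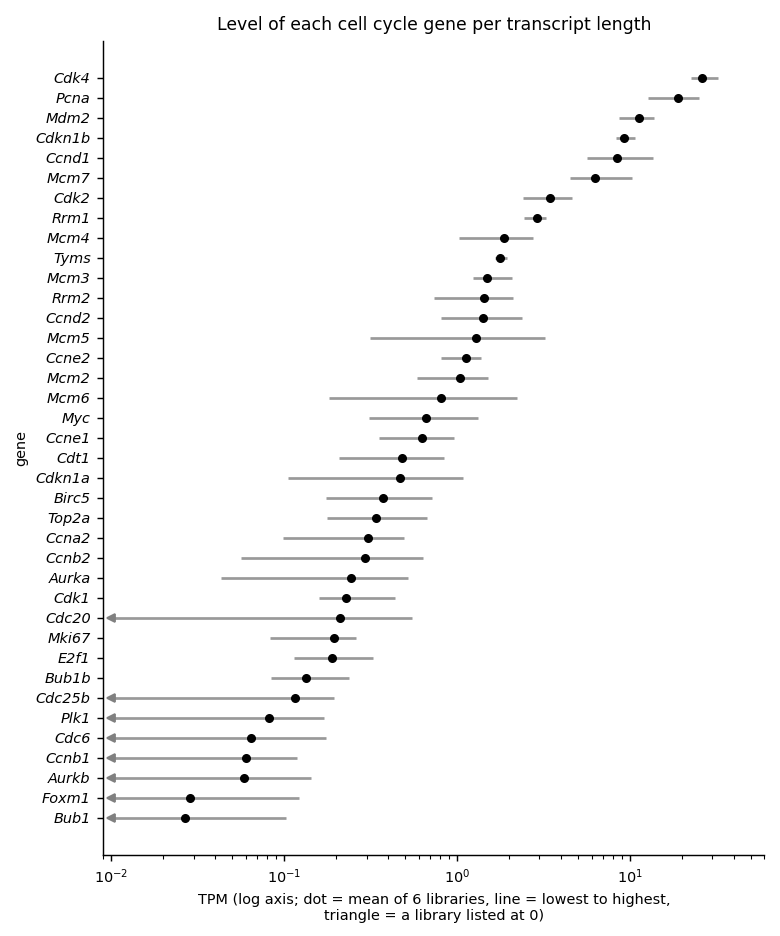
Level of each of the 38 genes in TPM on a log axis, with the mean of the 6 libraries as a dot and the lowest and highest library as the ends of the line. Cdk4 and Pcna stand at the top, at 26.2 and 19.1 TPM, whereas Mki67 averaged 0.194 TPM, and grey triangles mark genes listed at 0 in a library.

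To ask whether the cell cycle programme differed between the genotypes, the members were read from a test over all 17274 genes. No cell cycle gene passed the adjusted threshold of 0.05 in edgeR's quasi-likelihood test (smallest adjusted p = 0.982), and none passed with DESeq2 or edgeR's exactTest. Over all genes, 4 passed (0.0232%). Cdkn1a alone had an unadjusted p under 0.05, that is 1 of 34 genes, with higher values in the Cre-labelled libraries, where 2.62% of all genes tested met this in that direction and 4.8% in either direction. DESeq2 placed Cdkn1a and Mcm7 under this unadjusted limit, and exactTest placed Aurka and Cdkn1a there. The groups did not overlap for 4 of 34 genes (11.8%), against 10.6% of all genes. All 4 (Cdkn1a, Mcm7, Aurka and E2f1) were higher in the Cre-labelled libraries, a direction that 5.25% of all genes showed. Without regard to direction, both counts were close to the background of the table.

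Of the 34 genes, 25 had a positive log2 fold change and 9 a negative one, with a median of 0.31 against 0.00 over all genes. Without Cre-labelled replicate 3 the median was 0.02, and 17 of the 34 values were positive. That library was the highest for 19 of the 34 genes, so lower values were bound to follow from leaving it out. Leaving out any other mouse gave medians between 0.19 and 0.47. Standard errors ran from 0.110 to 1.02 on the log2 scale with a median of 0.423, so with 3 mice per group a difference of that size in a typical member lay within its error. In whole liver, fewer cells of a type and less RNA per cell cannot be told apart.

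**Figure D2:**
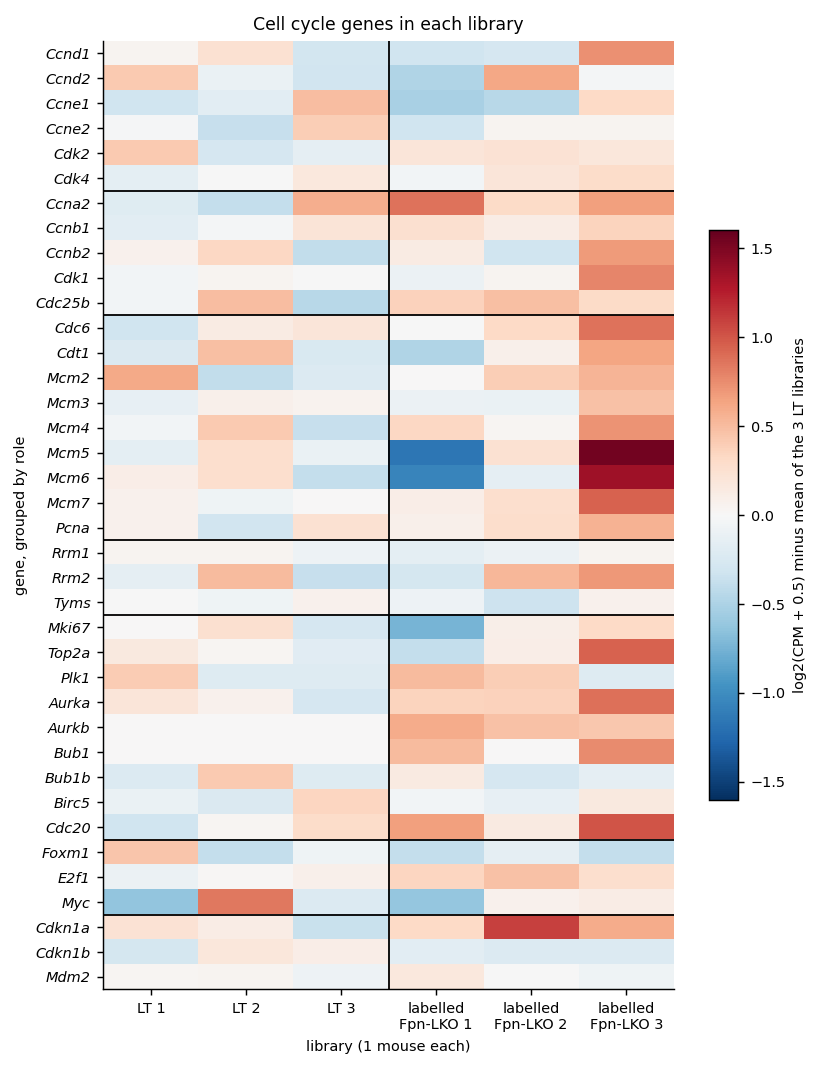
Each row is a gene and each column a library, and the colour gives log2(CPM + 0.5) minus the mean of the 3 LT libraries, so red is above and blue below the LT mean. Horizontal lines separate the 7 roles, and the column labelled Fpn-LKO 3 holds the highest library of 19 of the 34 genes tested.

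Cre-labelled replicate 3 had the highest CPM for 19 of the 34 genes (55.9%) and the lowest for none. Over all genes tested it was the highest for 17.9%. The pattern was densest among the licensing and replication genes, where it was the highest for 8 of 9, with Mcm2 as the exception. The summed level of these 9 genes was 42.9, 40.4 and 42.1 CPM in LT replicates 1 to 3. It was 40.6, 48.2 and 75.4 CPM in the Cre-labelled replicates 1 to 3, so that 1 mouse stood above the other 5. Among the 28 genes tested that had a promoter window, this library was the highest for 11 of the 12 with an E2F word and for 6 of the 16 without one. With and without a CHR it was the highest for 6 of 8 and 11 of 20, and with and without a CCAAT box for 14 of 20 and 3 of 8, while it was the highest for 0 of the 5 with a p53 decamer. Of the 12 genes with an E2F word, 6 are the replication genes already counted. Among 37 other S phase genes it was the highest for 13 (35.1%), and among 38 other mitotic genes for 16 (42.1%).

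Markers of some other liver cells were also high in this library. The summed level of 14 Kupffer cell and macrophage markers was 791 CPM there. LT gave 422 to 551 CPM, and the other two Cre-labelled libraries 357 and 439 CPM. It was the highest library for 12 of the 14, the exceptions being Marco and Cd163, and none of the 14 was at 0. Clec4f, a lectin of Kupffer cells with the most reads among them, had 104, 119 and 101 CPM in LT, against 104, 78.9 and 159 CPM in the Cre-labelled libraries. The 10 B and plasma cell markers summed to 24.1 CPM in this library, against 10.8 to 19.996 CPM for LT and 7.13 and 7.71 CPM for the other two, with 3 of the 10 highest there. The 11 neutrophil markers summed to 5.28 CPM there against 3.19 to 3.97 CPM in LT and 4.78 and 2.23 CPM for the other two, with 3 of the 11 highest there and Ly6g, Mpo, Ngp and Camp without a read in any library. The 12 T and NK cell markers (2.56 CPM against 1.89 to 5.45 CPM in LT) and the 8 cholangiocyte markers (20.97 CPM against 12.9 to 84.4 CPM in LT) lay inside the range of the other libraries, and the 10 stellate cell markers had their lowest sum there (258 CPM against 265 to 292 CPM in LT). The 10 endothelial markers summed to 326 CPM in it and to 324 and 342 CPM for the other two, all under the 349 to 406 CPM of LT. The 9 erythroid markers summed to 474 CPM in it, to 1007 and 1244 CPM for the other two and to 352 to 945 CPM in LT. The part of these cells in the level of the cell cycle genes was not tested.

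Mcm5 and Mcm6, subunits of the helicase ring, had larger standard errors than the other Mcm genes and were singled out after their values were seen. Mcm5 (chromosome 8, 75109468-75128439) had 2.25, 3.19 and 2.34 CPM in LT, against 0.881, 3.13 and 8.45 CPM in the Cre-labelled libraries. Mcm6 (chromosome 1, 128331575-128359705) had 2.13, 2.45 and 1.38 CPM in LT, against 0.671, 1.71 and 5.75 CPM in the Cre-labelled libraries. Both genes were at their lowest in Cre-labelled replicate 1 and at their highest in replicate 3, so the LT values lay inside the range of the other group. Their log2 fold changes of 0.68 (SE 0.68) and 0.45 (SE 0.69) became -0.37 and -0.73 without replicate 3.

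Mcm7 (chromosome 5, 138164583-138172111) was the helicase subunit with the highest level. It had 10.4, 9.42 and 9.96 CPM in LT, against 10.7, 12.0 and 19.5 CPM in the Cre-labelled libraries, with no overlap. The lowest Cre-labelled library was only slightly above the highest LT library. The log2 fold change was 0.50 (SE 0.23, unadjusted p = 0.0631) and was 0.20 without replicate 3. On the TPM scale the groups overlapped. Reads of Mcm7 may also be shared with a near-identical copy, Gm5487, and with the overlapping genes Ap4m1 and Cops6 on the other strand.

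The remaining helicase genes gave smaller differences. Mcm2 had 3.62, 1.57 and 1.84 CPM in LT, against 2.22, 3.06 and 3.45 CPM in the Cre-labelled libraries. Mcm3 (2.95 to 3.53 CPM in LT, 3.04 to 4.76 CPM in the other group) and Mcm4 (3.21 to 5.93 and 4.41 to 7.43 CPM) also overlapped. Pcna, the sliding clamp of DNA polymerase, had 16.9, 12.9 and 19.2 CPM in LT, against 17.1, 19.7 and 24.0 CPM in the Cre-labelled libraries, with a log2 fold change of 0.31 (SE 0.19). The licensing factor genes Cdc6 and Cdt1 were both under 1.5 CPM in every library. None of the 9 had an unadjusted p under 0.05, and their values ranged from 0.13 for Mcm3 to 1.40 for Cdc6 on the log2 scale. Without Cre-labelled replicate 3 the value of Cdc6 was 0.61.

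**Figure D3:**
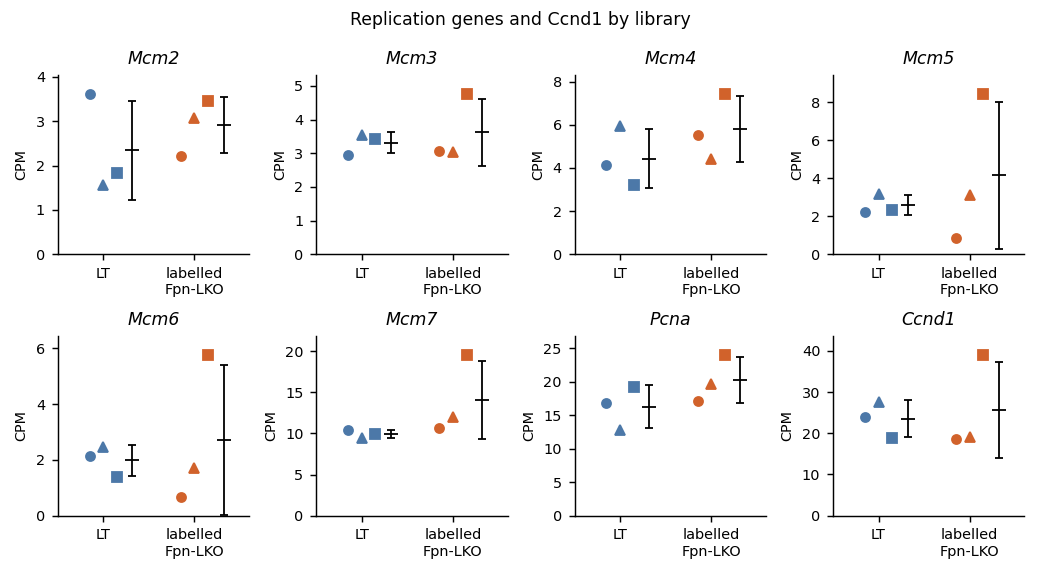
CPM of the 6 Mcm genes, Pcna and Ccnd1 on linear axes from 0, with LT in blue and Cre-labelled libraries in orange. Circles, triangles and squares are replicates 1, 2 and 3, the black mark is the mean with its SD (n = 3), and the orange square (replicate 3) is the highest point for Mcm3 to Mcm7, Pcna and Ccnd1.

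Among the G1 cyclins and kinases, no difference exceeded the spread between mice. Ccnd1, the cyclin that growth signals induce in G1 (chromosome 7, 144929931-144939831), had 24.0, 27.7 and 18.8 CPM in LT, against 18.5, 19.2 and 39.0 CPM in the Cre-labelled libraries. Its log2 fold change was 0.12 (SE 0.30) with all mice and -0.32 without Cre-labelled replicate 3, again the highest library. Ccnd2 (log2 fold change 0.08, SE 0.34), Ccne1 (-0.31, SE 0.51) and Ccne2 (-0.12, SE 0.30) overlapped between the groups as well. Cdk4 spanned 23.8 to 30.0 CPM in LT, against 25.8 to 32.9 CPM in the Cre-labelled libraries, and Cdk2, the kinase partner of cyclin E, 4.62 to 7.79 and 6.53 to 6.75 CPM. The summed level of the 6 genes was 64.0 to 67.3 CPM in LT, against 57.7, 69.4 and 88.5 CPM in the Cre-labelled libraries.

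The mitotic cyclin genes were near the limit of detection. Ccna2, whose product acts in S phase and G2, had 73 reads over the 3 LT libraries and 150 over those labelled Fpn-LKO. In CPM it was at 0.382, 0.277 and 1.02 in LT and at 1.34, 0.750 and 1.10 in the Cre-labelled libraries, with a log2 fold change of 0.93 (SE 0.55, unadjusted p = 0.127). The highest LT library, replicate 3, overlapped with the other group, and without it the log2 fold change was 1.68 with an unadjusted p under 0.05. Ccnb1 (8 against 23 reads), Ccnb2 (41 against 58 reads), Cdk1 (85 against 125 reads) and the activating phosphatase gene Cdc25b (28 against 55 reads) had more reads in the Cre-labelled libraries, and each overlapped between groups. The 5 genes together summed to 1.47, 1.94 and 1.89 CPM in LT, against 2.81, 2.099 and 3.86 CPM in the Cre-labelled libraries. Counts of Ccnb1 are uncertain because 4 annotated pseudogenes are near-identical to it.

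The markers of proliferation gave no common direction. Mki67 (chromosome 7, 135689784-135716450) had 1.51, 1.89 and 1.16 CPM in LT, against 0.692, 1.63 and 1.98 CPM in the Cre-labelled libraries, with a log2 fold change of -0.08 (SE 0.43). Top2a, which untangles sister chromatids (chromosome 11, 98992947-99024199), had 1.33, 1.18 and 0.943 CPM in LT, against 0.755, 1.26 and 2.65 CPM in the Cre-labelled libraries, with a log2 fold change of 0.43 (SE 0.48). In both genes the Cre-labelled libraries included the lowest and the highest of the 6 values. Without replicate 3, the log2 fold changes were -0.39 and -0.19.

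Kinase genes of mitosis had few reads. Aurka, which encodes the centrosome kinase Aurora A, had 0.321, 0.254 and 0.0967 CPM in LT, against 0.419, 0.428 and 0.819 CPM in the Cre-labelled libraries, with no overlap (log2 fold change 1.29, SE 0.55, unadjusted p = 0.0509). This rests on 31 reads in LT and 78 in the other group. Aurkb, whose product corrects chromosome attachment, and Bub1, a spindle checkpoint kinase gene, had no read in any LT library and were picked out for this after their values were seen. The Cre-labelled libraries held 29 reads of Aurkb, present in all 3, and 26 reads of Bub1, present in 2 of 3. Against a floor of 3 reads over the LT group, the pooled reads gave ratios of 9.23 for Aurkb and 8.28 for Bub1. These ratios leave out the counting error of the Cre-labelled group and the spread between mice. Both genes were removed by the filter, and no test of them is given, since they were chosen for the absence of reads in LT. Plk1 (13 against 27 reads), Cdc20 (17 against 67 reads), Bub1b (57 against 51 reads) and the survivin gene Birc5 (90 against 93 reads) overlapped between the groups.

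Genes of nucleotide supply overlapped between the groups. Rrm1, the large subunit of ribonucleotide reductase, spanned 8.51 to 9.31 CPM in LT, against 8.07 to 9.35 CPM in the Cre-labelled libraries, with a log2 fold change of -0.07 (SE 0.14). Tyms, the thymidylate synthase gene, had a log2 fold change of -0.12 (SE 0.18), and Rrm2, the subunit made in S phase, one of 0.39 (SE 0.41). Among the transcription factor genes, E2f1 had 0.241, 0.300 and 0.338 CPM in LT, against 0.503, 0.5997 and 0.453 CPM in the Cre-labelled libraries, with no overlap (log2 fold change 0.82, SE 0.39, unadjusted p = 0.0683). E2f1 was not at its highest in replicate 3, and its log2 fold change was 0.91 without that library. Myc, a growth regulator, had 0.603, 2.56 and 0.967 CPM in LT, against 0.608, 1.29 and 1.36 CPM in the Cre-labelled libraries, and 1 LT library was above all others. Foxm1, a driver of mitotic genes, had 19, 0 and 5 reads in LT and 0, 4 and 0 in the Cre-labelled libraries, so the groups overlapped.

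**Figure D4:**
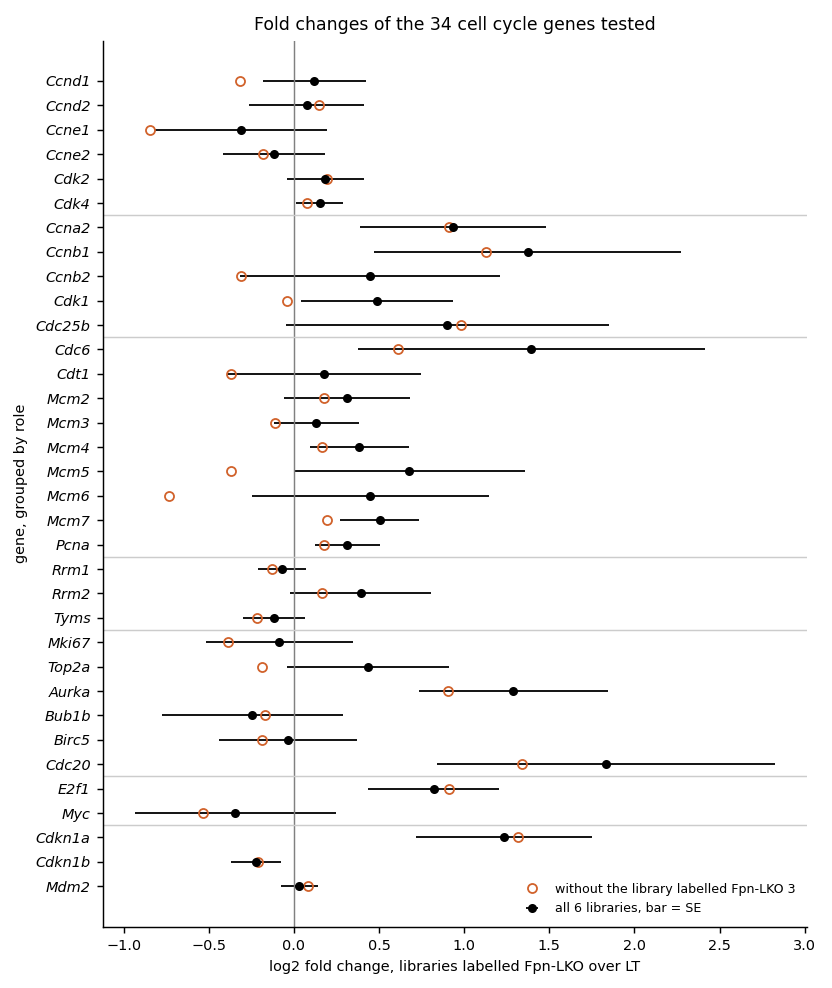
Log2 fold change of the Cre-labelled libraries over LT for the 34 genes tested, with the SE as a bar in black, and the value without the library labelled Fpn-LKO 3 as an open orange circle. Grey lines separate the roles, and the open circles of Mcm5 and Mcm6 lie on the other side of 0, at -0.37 and -0.73.

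The p53 targets and inhibitors were then set beside the cyclins. Cdkn1a (chromosome 17, 29090979-29100722) had 0.542, 0.462 and 0.193 CPM in LT, against 0.608, 1.39 and 0.840 CPM in the Cre-labelled libraries, with no overlap. Its log2 fold change was 1.23 (SE 0.52, unadjusted p = 0.0462, with an adjusted p of 0.982 in the quasi-likelihood test) and rested on 55 and 133 reads. The unadjusted p was above 0.05 when Cre-labelled replicate 2 or 3 or LT replicate 2 or 3 was left out, and also with filterByExpr and with the replicate number as a block. The lowest Cre-labelled library was close to the highest LT library. Unlike the replication genes, Cdkn1a was at its highest in replicate 2 and its log2 fold change was 1.31 without replicate 3. That value is for the whole gene, and a gene on the other strand, AC167363.2, overlaps it.

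Mdm2, the ubiquitin ligase gene that p53 induces and that limits p53 in turn (chromosome 10, 117688875-117710758), showed no such separation. It had 34.4, 34.9 and 31.9 CPM in LT, against 38.01, 33.5 and 32.0 CPM in the Cre-labelled libraries, with a log2 fold change of 0.03 (SE 0.11). With 4544 and 4862 reads, it was among the most precisely measured of the 38 genes. Cdkn1b, the gene of the kinase inhibitor p27, had 14.8, 20.6 and 19.5 CPM in LT, against 16.1, 15.5 and 15.5 CPM in the Cre-labelled libraries (log2 fold change -0.22, SE 0.15). The LT library with the lowest value lay below the whole other group.

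Of 32 other genes known as p53 targets or as partners of p53, 30 were tested. None passed the adjusted threshold in the quasi-likelihood test, and 4 had an unadjusted p under 0.05, all with higher values in the Cre-labelled libraries, a direction and limit that 2.62% of all genes met. The groups did not overlap for 7 of the 30, against 10.6% of all genes, with 5 of the 7 higher and 2 lower (Perp and Mdm4), and the median log2 fold change was 0.18. This list was drawn up with earlier results of these data known, so these shares describe it and do not test p53 activity. Plk3, a stress-responsive kinase gene (chromosome 4, 117128655-117133963), had the smallest p-value of them. It had 31.4, 20.2 and 25.8 CPM in LT, against 49.8, 58.5 and 49.5 CPM in the Cre-labelled libraries. All 3 of the latter were well above the highest LT library. The log2 fold change was 1.03 (SE 0.17), the unadjusted p 0.000443 and the adjusted p 0.401 by the quasi-likelihood test, while the adjusted p was 0.000295 with DESeq2 and 0.000937 with exactTest, where Plk3 alone of the 30 passed. Under the other alternatives its adjusted p lay between 0.325 and 0.863. Exons of Tctex1d4 on the other strand overlap Plk3.

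Eda2r, a death receptor gene, had 0.763, 0.670 and 0.507 CPM in LT, against 1.64, 1.29 and 2.24 CPM in the Cre-labelled libraries (log2 fold change 1.40, SE 0.35). Btg2, an antiproliferative gene, had 3.39, 4.23 and 5.34 CPM in LT, against 5.47, 6.98 and 9.68 CPM in the other group (0.77, SE 0.27). Ccng1, the cyclin G1 gene, had 45.1, 43.7 and 39.8 CPM in LT, against 55.7, 48.9 and 49.8 CPM in the other group (0.26, SE 0.11). In all of these the groups were apart, with adjusted p-values of 0.791, 0.982 and 0.982 by the quasi-likelihood test. Plk3 and Btg2 are also known to respond to growth factors and stress. Of 20 immediate early genes tested, which respond in the same way, 3 (Jund, Atf3 and Dusp1) had an unadjusted p under 0.05. All 3 had higher values in the Cre-labelled libraries, a direction and limit that 2.62% of all genes met. The immediate early list was also chosen with earlier results of these data known. The part of such a response in the p53 list was not tested. The p53 decamer was found in the windows of 9 of the 25 listed targets that had one, against 9.55% of all genes.

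**Figure D5:**
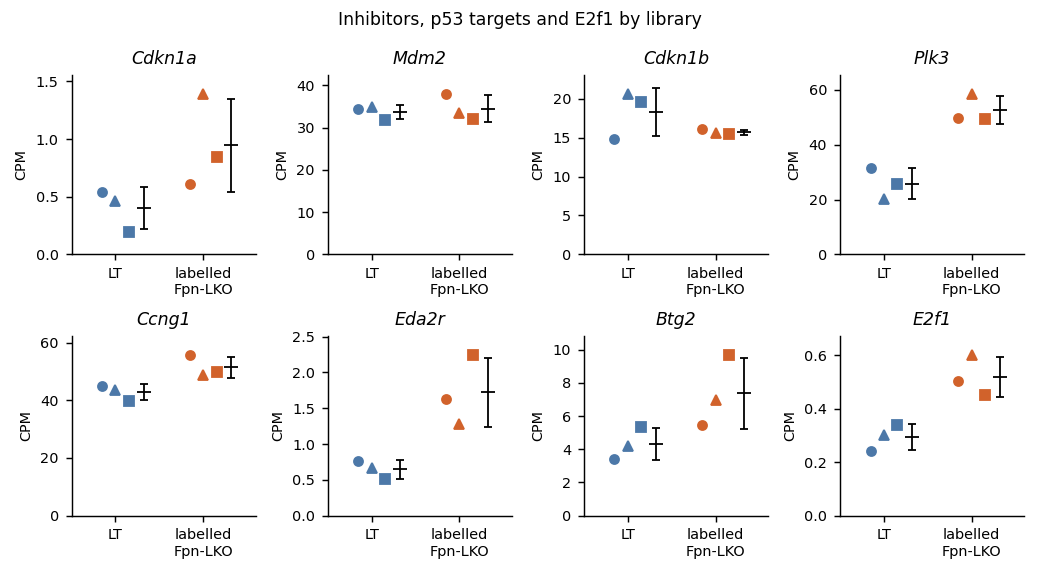
CPM of Cdkn1a, Mdm2, Cdkn1b, 4 further p53 targets and E2f1 on linear axes from 0, with LT in blue and Cre-labelled libraries in orange; circles, triangles and squares are replicates 1, 2 and 3 and the black mark is the mean with its SD (n = 3). The groups are apart in every panel but those of Mdm2 and Cdkn1b.

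Beyond the 38, 141 other genes of the cell cycle were listed and 108 were tested. None passed the adjusted threshold in the quasi-likelihood test, with DESeq2 or with exactTest. An unadjusted p under 0.05 was found for 4 (1 higher and 3 lower in the Cre-labelled libraries), against 4.8% of all genes in either direction. The groups were apart for 8 (7.41%, 3 higher and 5 lower), against 10.6% of all genes. The median log2 fold change was 0.09. Ccnf, the F-box protein gene cyclin F that acts in G2, had 10.02, 20.9 and 8.39 CPM in LT, against 6.77, 2.74 and 1.36 CPM in the Cre-labelled libraries. All values of the latter were under the LT values, with a log2 fold change of -1.85 (SE 0.59, adjusted p = 0.982 by the quasi-likelihood test). It was -2.68 without Cre-labelled replicate 1, the highest of its group. Brca2, of recombination repair, had 8.40, 11.9 and 7.54 CPM in LT, against 5.60, 5.89 and 7.03 CPM in the other group (log2 fold change -0.59, SE 0.21). Rbl2, the gene of the pocket protein p130 that holds quiescent cells in G0, had 38.2, 35.8 and 32.2 CPM in LT, against 27.4, 31.4 and 25.5 CPM in the other group (-0.33, SE 0.12). The gene with higher values was Prc1, a spindle midzone gene named here after its value was seen, with 22 reads in LT and 90 in the Cre-labelled libraries. Prc1 had 0.201, 0.162 and 0.121 CPM in LT, against 0.650, 0.386 and 0.884 CPM in the other group, with no overlap. Its log2 fold change was 1.96 (SE 0.49, adjusted p = 0.767 by the quasi-likelihood test).

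Near-identical copies or overlapping exons limit some of these values. Of the 38 genes, 6 (Ccnb1, Mcm4, Mcm7, Pcna, Plk1 and Cdc20) have an annotated near-identical copy. Exons of a gene on the other strand overlap 11 of them, including Ccnd1, Cdk4, Ccna2 and Cdkn1a, and 3 are overlapped on their own strand. The kit keeps the strand of the RNA, but whether the counting used it is not given in the sources used here.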

How the data were processed

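Liver RNA of 6 mice was sequenced, 3 per group, with 1 library per mouse. The labels name a stranded mRNA kit, whereas the study's methods name a stranded total RNA kit with removal of ribosomal RNA. The submitters' processing notes name HISAT2 2.1.0 with Bowtie2 2.3.4.1 and StringTie 2.1.3b and the build mm10; the annotation release is not given in the sources used here. The authors deposited read counts per gene, with no normalization, beside FPKM (not used here) and TPM per gene. The authors' TPM values served to compare levels between genes and for limma.

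Groups came from the sample titles. Counts were used as deposited. Following the study's methods, a gene stayed in if at most 1 library lacked a read. Libraries were scaled by TMM. The quasi-likelihood test of edgeR 4.0.16 compared the groups (the methods name exactTest), and p-values were adjusted by Benjamini-Hochberg over the 17274 genes. CPM are counts over the TMM-scaled library size, SE is that of the log2 fold change, and the common biological coefficient of variation was 0.275. An exact permutation test of 3 against 3 cannot give a p below 0.1. Library totals were 43086184 to 47778683, so 1 CPM is 41.4 to 49.8 reads. Floors cover the counting error of the LT group only.

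The alternatives were RLE scaling, DESeq2 1.42.0 without independent filtering, exactTest, filterByExpr, all genes with a read, a block for the replicate number, limma 3.58.1 on log2(TPM + 1) or log2(TPM + 0.1) for genes averaging at least 1 TPM, and leaving out each mouse. The scripts were tested on simulated data. The members and all gene lists were chosen with earlier results of these data known. All 38 members were described, with values per library for those with an unadjusted p under 0.05, those apart with at least 1 CPM and 6 preset genes; of the other cell cycle and p53 lists, genes with an unadjusted p under 0.05 and at least 1 CPM were named. Values per library of further members were added after seeing them. Copies were searched with BLAST 2.17.0 in GENCODE vM21 transcripts at 90% identity over at least 50% of the length, and gene positions are from RefSeq on GRCm38.p6.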

Additional observations from a re-analysis of the deposited data

How the results depend on the processing

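No cell cycle gene passed the adjusted threshold under any of the 14 alternatives. Of all genes tested, 4 passed with the quasi-likelihood test, 72 with DESeq2, 63 with exactTest, 7 with limma on log2(TPM + 1), 7 on log2(TPM + 0.1), 0 with the replicate block (850 at an unadjusted p under 0.05) and 0 to 6 when a mouse was left out. The count of members with an unadjusted p under 0.05, 1 as reported, was 2 with DESeq2 (5.22% of all genes), 2 with exactTest (4.6%), 3 of 38 with all genes that had a read (4.15%), 0 with filterByExpr (4.89%), 0 with limma at either pseudocount (4.99% and 4.95%), 0 with the replicate block (4.92%) and 0 to 5 when a mouse was left out (3.61 to 5.46%). Aurkb and Bub1, 2 of the 3 with all genes that had a read, enter that test through the Cre-labelled group alone. Cdkn1a was not under that limit without Cre-labelled replicate 2, Cre-labelled replicate 3, LT replicate 2 or LT replicate 3. The 4 members apart became 0 with limma's TPM values at either pseudocount, where the mean of at least 1 TPM kept 16 members. That limit removed Cdkn1a, Aurka and E2f1 (0.470, 0.243 and 0.189 TPM), so limma did not test them and only Mcm7 was seen to overlap there. The 4 became 6 to 8 when a mouse was left out, since fewer libraries have to be apart. The causes of the other shifts were not tested.

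The sign of Mcm6 reversed with the replicate block (-0.049). Leaving out a mouse turned the sign of 16 of the 34 members, among them Ccnb2, Cdk1 and Cdt1 (-0.31, -0.04 and -0.37 without Cre-labelled replicate 3). For those with values per library, the sign turned within these ranges of log2 fold changes: Mcm3 (-0.11 to 0.24), Mcm5 (-0.37 to 1.16), Mcm6 (-0.73 to 0.91), Mki67 (-0.39 to 0.25), Top2a (-0.19 to 0.77), Ccnd1 (-0.32 to 0.31), Mdm2 (-0.042 to 0.084) and Myc (-0.70 to 0.47), and the median of the members ran from 0.02 to 0.47. The median and the values of genes outside the 38 were added to the alternatives after seeing the data. Same-numbered deviations correlated at 0.249, 0.026 and 0.129 over 12577 genes, which does not settle whether the replicate numbers pair the mice. LT replicates 1 and 3 correlated best with the same number. LT replicate 2 correlated about equally with Cre-labelled replicates 2 and 3 (0.026 and 0.027). The block left no adjusted call among the members, the other cell cycle genes or the p53 targets, as without it, and took the other cell cycle genes with an unadjusted p under 0.05 from 4 to 6.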
